A study of Mus musculus with 17 samples.

Results

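The endothelial genes of the mouse mammary gland, 9 of blood and lymphatic vessels and the lymphoid addressin gene Madcam1, 10 in all, were followed through 4 genotypes and 2 read layouts. They were chosen as the loci of the deposited table whose gene name was Pecam1, Cdh5, Kdr, Flt1, Tek, Tie1, Vwf, Lyve1, Prox1 or Madcam1. Each name matched 1 locus, so the set was 10 of 30843 loci. Polyadenylated RNA came from homogenized mammary glands, and 17 libraries were sequenced; all mice were females of strain C57Bl/6 that had never borne young. AROM mice carried tet-op-CYP19A1 with MMTV-rtTA, which puts the aromatase gene under tetracycline control. CERM mice carried tet-op-Esr1 with MMTV-rtTA, which does the same for estrogen receptor alpha. BRCA mice carried Brca1fl11/fl11 with MMTV-Cre on a p53+/- background, and WT mice were labelled wild type. The MMTV promoter that drives rtTA and Cre is known for activity in mammary epithelium, and its activity in other cells was not measured here. The label p53+/- denotes an allele that every cell of BRCA mice carries, endothelium included. The sources used here give neither age nor any tetracycline treatment.

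Blood endothelial cells line every vessel of the gland's fat pad and are held together by the adhesion proteins of Pecam1 and Cdh5. They grow and survive through receptor tyrosine kinases for vascular endothelial growth factors (Kdr and Flt1) and angiopoietins (Tek, with its relative Tie1), and they store von Willebrand factor (Vwf) for clotting. Lymphatic endothelium is specified by the transcription factor of Prox1 and carries the hyaluronan receptor of Lyve1, which tissue macrophages can carry as well. Madcam1 encodes the vascular addressin that binds lymphocytes homing to mucosal tissue, and it has been described on mouse mammary vessels in pregnancy and lactation.

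The table held 8 columns of FPKM, fragments scaled to transcript length and to library size, 1 column for each genotype and layout. By the labels each genotype has 2 single-end libraries, and there are 3 AROM, 3 CERM, 2 BRCA and 1 WT library of the paired-end kind. With 1 value per genotype and layout no spread between libraries can be had, so nothing here was tested and every difference lacks a check by replicates. The labels say that libraries were sequenced by both methods, so the layouts may share animals and are not independent. In the WT columns 38.2% of single-end and 37.2% of paired-end values ended in repeating decimals as means of 3 numbers do, against at most 0.027% in any other column, and how the WT values were combined is not given. The single-end and paired-end BRCA columns were closest, with a median absolute log2 difference of 0.058 over 11734 genes, against 0.29 for AROM, 0.16 for CERM and 0.16 for WT. The depth behind each column is unknown, and unnamed loci held 88.2% to 99.5% of the summed FPKM of the paired-end columns. Markers of the gland were present throughout: 7 luminal epithelial genes summed to between 242 and 840.4 FPKM and 9 white adipocyte genes to between 1742 and 6159 FPKM. Of the engineered genes, Esr1 in CERM was 1.17 and 1.22 times WT and Brca1 in BRCA 2.90 and 3.87 times WT (single-end and paired-end). Mouse Cyp19a1 was at 0.0591 and 0.0502 FPKM in AROM (single-end and paired-end) and at 0 in every other column, while the transgene carries the human gene. Trp53 in BRCA was 0.2995 and 0.352 times WT. These values do not settle the labels, so AROM, CERM, BRCA and WT below are the columns so labelled.

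Pecam1 and Cdh5 were the most abundant of the 10 genes in all 8 columns on the FPKM scale, which is per transcript length. Pecam1 encodes an adhesion protein at endothelial junctions that platelets and leukocytes also carry. It stood at 60.4 FPKM in AROM, 61.3 in CERM and 53.6 in BRCA, against 51.3 in WT, in the single-end columns. In the paired-end columns it stood at 39.96 FPKM in AROM, 59.5 in CERM and 52.7 in BRCA, against 44.0 in WT. The 8 values lay between 39.96 and 61.3 FPKM, and AROM was above WT in the single-end columns and below it in the paired-end ones. Cdh5, which encodes the junctional cadherin of endothelium, was at 46.2 FPKM in AROM, 44.8 in CERM and 34.7 in BRCA, against 49.1 in WT (single-end). Its paired-end values were 33.1 in AROM, 40.5 in CERM and 34.1 in BRCA, against 43.9 in WT. All 3 models were below WT in both layouts, and AROM paired-end and BRCA in both layouts held the lowest values.

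**Figure D1:**
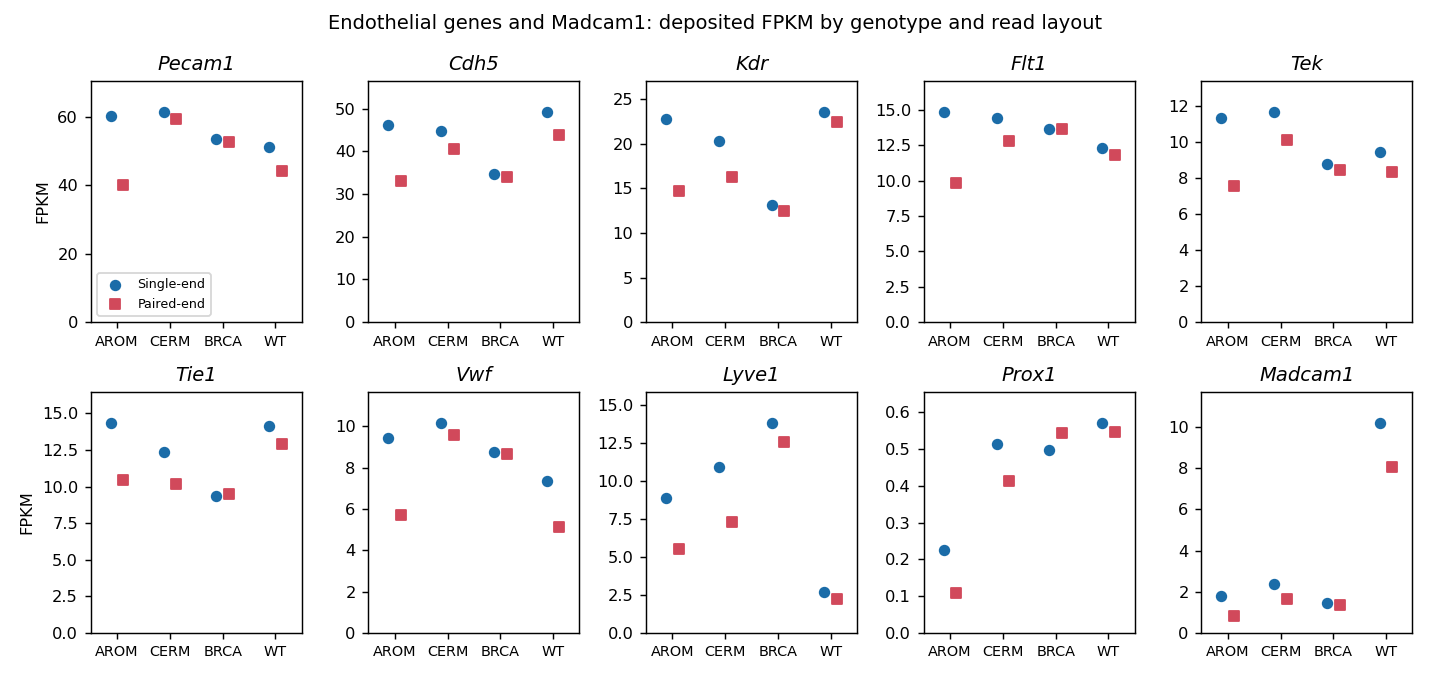
FPKM of each of the 10 genes (vertical axes, each from 0) in the AROM, CERM, BRCA and WT columns; circles are single-end and squares paired-end values, 1 pooled value each, with no error available. Lyve1 is lowest and Madcam1 highest in WT in both layouts, while Pecam1 lies between 39.96 and 61.3 FPKM.

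A gene was called when its ratio of FPKM + 1 between 2 columns was at least 2-fold; the addition of 1 understates the ratios of low genes. Of the 9 vessel genes, 8 had a mean of at least 1 FPKM over the 8 columns and were counted; Prox1 did not. In each of the 6 comparisons with WT, 1 of the 8 was at least 2-fold higher, Lyve1 each time, and none was 2-fold lower. Over all 11734 genes analysed, the share at least 2-fold higher was 2.51% for AROM, 3.55% for CERM and 3.38% for BRCA in the single-end columns, and 2.1%, 3.65% and 4.68% for AROM, CERM and BRCA in the paired-end columns. The count of vessel genes called is therefore a statement about Lyve1 and not about the list. The median log2 ratio of the 8 genes was 0.24 for AROM over WT, 0.23 for CERM over WT and -0.013 for BRCA over WT in the single-end columns, beside 0 (AROM), -0.047 (CERM) and 0.037 (BRCA) for all genes. In the paired-end columns it was -0.19 for AROM, 0.18 for CERM and 0.10 for BRCA, beside -0.078, 0.038 and 0.10 for all genes. The AROM median thus lay above WT in one layout and below it in the other.

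**Figure D2:**
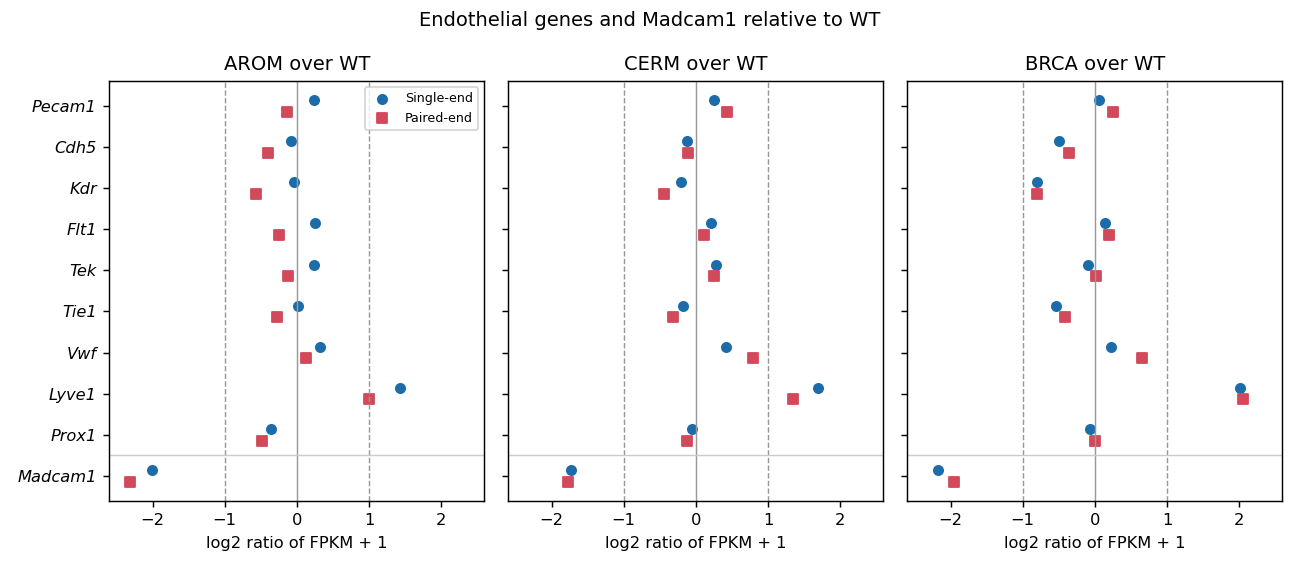
log2 ratio of FPKM + 1 to WT (horizontal axis) for the 10 genes in AROM, CERM and BRCA; circles are single-end and squares paired-end columns, and dashed lines mark 2-fold. Lyve1 lies at or right of the upper line and Madcam1 left of the lower line in all 3 panels, and the other 8 genes lie between the lines.

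The receptors for vascular endothelial growth factor differed from each other across the genotypes. Kdr encodes the main signalling receptor of blood endothelium, and Flt1 a receptor with high ligand affinity and weak kinase activity, which also exists as a secreted decoy. Kdr was at 22.8 FPKM in AROM, 20.3 in CERM and 13.1 in BRCA, against 23.5 in WT, in the single-end columns. In the paired-end columns Kdr was at 14.8 FPKM in AROM, 16.3 in CERM and 12.5 in BRCA, against 22.4 in WT. BRCA was lowest and WT highest in both layouts, and the BRCA value was 0.557 times WT in each, a log2 ratio of FPKM + 1 of -0.80 that does not reach 2-fold. Flt1 was at 14.8 FPKM in AROM, 14.4 in CERM and 13.7 in BRCA, against 12.3 in WT (single-end). Paired-end Flt1 was at 9.83 FPKM in AROM, 12.9 in CERM and 13.7 in BRCA, against 11.8 in WT. CERM and BRCA were above WT in both layouts, by at most 1.17-fold, and AROM was above it in one layout only. Within a column, Kdr divided by Flt1 was 1.54 in AROM, 1.40 in CERM and 0.957 in BRCA, against 1.91 in WT (single-end), and 1.502 in AROM, 1.27 in CERM and 0.916 in BRCA, against 1.90 in WT (paired-end). This quotient needs no scaling between columns and had the same order in both layouts, WT highest and BRCA lowest.

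The stretches before the start of these receptor genes are shown because the genes lie on the same chromosome and differed in the BRCA columns, with each match of GGAAG on either strand, the core bound by ETS factors of endothelium, in capitals. The sequences are RefSeq's, read in the direction of transcription, from a later build than the mm9 of the files.
Kdr, GRCm38.p6 chr5:75978456-75978705, minus strand: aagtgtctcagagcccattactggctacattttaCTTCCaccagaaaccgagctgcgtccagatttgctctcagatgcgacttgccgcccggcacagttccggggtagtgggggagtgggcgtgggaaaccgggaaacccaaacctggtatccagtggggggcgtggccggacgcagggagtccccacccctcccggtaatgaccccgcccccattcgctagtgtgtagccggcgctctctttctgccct
Flt1, GRCm38.p6 chr5:147726012-147726261, minus strand: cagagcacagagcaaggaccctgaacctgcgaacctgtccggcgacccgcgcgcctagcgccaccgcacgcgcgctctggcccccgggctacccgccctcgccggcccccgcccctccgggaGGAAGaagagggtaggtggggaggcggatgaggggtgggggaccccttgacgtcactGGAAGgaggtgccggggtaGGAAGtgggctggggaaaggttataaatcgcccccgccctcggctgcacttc
The 250 bases before Kdr held 1 match, 216 to 212 bases before the start, and those before Flt1 held 3, of which the nearest ended 48 bases before the start. Of 32851 promoter entries, 64.1% held at least 1 match and 29.4% at least 2. Among the other genes with an entry, Tie1 held 6 matches and Tek none in the same window. Of the 10 genes, 6 had an entry.

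The angiopoietin receptor Tek, which keeps vessels quiescent, was at 11.3 FPKM in AROM, 11.6 in CERM and 8.79 in BRCA, against 9.42 in WT (single-end). Paired-end, Tek was at 7.53 in AROM, 10.1 in CERM and 8.44 in BRCA, against 8.33 in WT. CERM was highest in both layouts. The log2 ratio of BRCA over WT was -0.090 in the single-end columns and 0.016 in the paired-end ones, the second below 0 under median-of-ratios and quantile scaling. Tie1, an orphan receptor that modulates Tek, was at 14.3 FPKM in AROM, 12.4 in CERM and 9.39 in BRCA, against 14.2 in WT (single-end). Its paired-end values were 10.5 in AROM, 10.2 in CERM and 9.49 in BRCA, against 12.9 in WT. BRCA was lowest in both layouts, at 0.663 times WT in the single-end and 0.734 times WT in the paired-end columns, short of 2-fold.

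Vwf, the clotting factor gene of endothelium and megakaryocytes, was at 9.44 FPKM in AROM, 10.2 in CERM and 8.76 in BRCA, against 7.37 in WT (single-end). Its paired-end values were 5.69 in AROM, 9.60 in CERM and 8.67 in BRCA, against 5.13 in WT. WT was lowest in both layouts, and no ratio passed 2-fold; the highest was 1.87 for CERM over WT in the paired-end columns. Divided by the Cdh5 value of its own column, Vwf was 0.204 in AROM, 0.227 in CERM and 0.253 in BRCA, against 0.150 in WT (single-end), and 0.172 in AROM, 0.237 in CERM and 0.255 in BRCA, against 0.117 in WT (paired-end). Relative to Cdh5, Vwf was thus lowest in WT and highest in BRCA in both layouts. The place of BRCA depends on the divisor, since Cdh5 in BRCA was 0.706 and 0.776 times WT. Undivided, Vwf was highest in CERM in both layouts. Among platelet and megakaryocyte genes, the summed level of the 8 with a locus of their own ranged from 31.4 FPKM in BRCA to 58.0 in AROM over the 6 model columns, against 19.8 and 32.6 in the WT columns. Of the 4 platelet genes analysed, the integrin gene Itgb3 was at least 2-fold higher in CERM than in WT in both layouts, at 6.58 and 5.22 FPKM in CERM, against 1.46 and 1.24 in WT. Over all genes, 0.92% were called so. The platelet chemokine gene Pf4, the most abundant of the list, was at 50.5 FPKM in AROM, 32.2 in CERM and 27.99 in BRCA, against 26.8 in WT (single-end), and at 47.5 in AROM, 35.4 in CERM and 24.3 in BRCA, against 15.3 in WT (paired-end). Pf4 was past 2-fold higher in paired-end AROM and CERM. The platelet receptor gene Gp6 was at most 0.068 FPKM in any column; the part of platelets in the Vwf values was not tested.

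Lyve1 separated the 3 models from WT. It was at 8.89 FPKM in AROM, 10.9 in CERM and 13.8 in BRCA, against 2.67 in WT, in the single-end columns. In the paired-end columns it was at 5.51 FPKM in AROM, 7.30 in CERM and 12.5 in BRCA, against 2.25 in WT. Each model value exceeded both WT values, and the order from WT through AROM and CERM to BRCA was the same in both layouts. The FPKM ratios to WT were 3.33 for AROM, 4.09 for CERM and 5.16 for BRCA (single-end) and 2.44, 3.24 and 5.56 for AROM, CERM and BRCA (paired-end). On the log2 scale of FPKM + 1 they were 1.43 (AROM), 1.70 (CERM) and 2.01 (BRCA) in the single-end columns and 1.00 (AROM), 1.35 (CERM) and 2.06 (BRCA) in the paired-end ones. The paired-end AROM value stood just at the 2-fold line, and it was 0.83 when set against the single-end WT column. Of the 11734 genes, 94 in AROM, 115 in CERM and 79 in BRCA were at least as high over WT as Lyve1 in the single-end columns, Lyve1 included. The paired-end numbers were 246 in AROM, 230 in CERM and 80 in BRCA. Higher than WT by at least 2-fold in both layouts were 0.384% of genes in AROM, 0.92% in CERM and 2.77% in BRCA. Only 8 genes (0.0682%) were so in AROM, CERM and BRCA alike. Lyve1 was among them, with Cd209b, Cdsn, Elovl3, Myoc, Nrap, Serpina1b and Tacc2, named after their values were seen. Nrap was listed at 0 in paired-end WT. All 6 comparisons behind this count share the WT columns, 1 for each layout.

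Prox1 did not follow Lyve1. It was at 0.224 FPKM in AROM, 0.513 in CERM and 0.496 in BRCA, against 0.570 in WT (single-end), and at 0.108 in AROM, 0.414 in CERM and 0.543 in BRCA, against 0.547 in WT (paired-end). AROM was lowest in both layouts, at 0.394 and 0.197 times WT in FPKM; with 1 added, its log2 ratios were -0.36 and -0.48, short of the 2-fold line. With 0.1 FPKM added instead, they were -1.05 and -1.64, past it. At levels this low the counting error is unknown, and the gene was outside the counts. Lyve1 divided by Prox1 was 39.6 in AROM, 21.3 in CERM and 27.8 in BRCA, against 4.68 in WT (single-end), and 51.0 in AROM, 17.7 in CERM and 23.1 in BRCA, against 4.12 in WT (paired-end).

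The further lymphatic genes were given beside Lyve1. Of the 8 listed, 6 had a locus of their own and 3 passed the minimum level; none of these 3 (Flt4, Pdpn and Itga9) was called against WT in any of the 6 comparisons. Flt4, the receptor for lymphatic growth factors, was at 2.24 FPKM in AROM, 2.25 in CERM and 2.35 in BRCA, against 2.08 in WT (single-end), and at 1.48 in AROM, 1.73 in CERM and 2.34 in BRCA, against 1.94 in WT (paired-end). The Flt4 values of AROM and CERM lay above WT in the single-end and below it in the paired-end columns, and those of BRCA above WT in both. Itga9 was at 3.47 and 3.58 FPKM in BRCA, against 1.96 and 1.83 in WT (single-end and paired-end), short of 2-fold. Of the 3 genes, 2 (single-end) and 3 (paired-end) lay above WT in BRCA. Among the genes below the minimum, Mmrn1, a multimerin gene of lymphatic endothelium and platelets, was at 1.37 and 1.23 FPKM in BRCA, against 0.27 and 0.31 in WT (single-end and paired-end); in AROM it was at 0.15 and 0.083 FPKM. Reln lay between 0.58 and 1.26 FPKM over the 8 columns. In bulk tissue, fewer cells of a type and less RNA per cell cannot be told apart.

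Markers of tissue macrophages, a cell type that can carry Lyve1, moved with it in part. Of 7 such genes analysed, 4 were at least 2-fold higher in BRCA than in WT in the single-end columns and 6 in the paired-end columns, with none lower. Over all genes, the higher shares in BRCA were 3.38% (single-end) and 4.68% (paired-end). Csf1r, Mrc1, Timd4 and C1qb were called in BRCA in both layouts. Timd4, a receptor for dying cells on resident macrophages, was at 11.6 and 11.9 FPKM in BRCA, against 2.16 and 1.44 in WT, and the mannose receptor gene Mrc1 at 22.7 and 21.4 FPKM in BRCA, against 9.44 and 6.60 in WT (single-end and paired-end). None of the 7 was called in AROM in either layout or in CERM in the single-end columns, while 4 were at least 2-fold higher in CERM in the paired-end columns, beside 3.65% of all genes. Above WT lay 5 of the 7 in AROM and 7 in CERM (single-end), and 7 in each (paired-end). Timd4 was at 4.08 FPKM in AROM and 4.11 in CERM (single-end), and at 2.81 and 3.27 (paired-end). It thus had the order of Lyve1 in both layouts. Mrc1 in AROM was at 14.9 and 10.9 FPKM (single-end and paired-end). The summed level of the 7 genes was 329 FPKM in AROM, 348 in CERM and 563 in BRCA, against 317 in WT (single-end), and 303 in AROM, 483 in CERM and 555 in BRCA, against 242 in WT (paired-end). Lyve1 divided by Mrc1 was 0.599 in AROM, 0.739 in CERM and 0.607 in BRCA, against 0.283 in WT (single-end), and 0.506 in AROM, 0.372 in CERM and 0.584 in BRCA, against 0.341 in WT (paired-end). The summed level of 8 muscle genes was above WT in all 3 models in the single-end columns, at 31845 FPKM in AROM, 34549.9 in CERM and 14513 in BRCA, against 11205 in WT. All 8 were at least 2-fold higher in AROM and in CERM there, and 1 was in BRCA, beside 2.51% (AROM), 3.55% (CERM) and 3.38% (BRCA) of all genes. In the paired-end columns the summed level of the muscle genes was 20856 in AROM, 26433 in CERM and 14292 in BRCA, against 18686 in WT, so BRCA was below WT there. The summed level of 7 fibroblast and matrix genes was 1236 FPKM in AROM, 963 in CERM and 1401 in BRCA, against 910.5 in WT (single-end), and 955 in AROM, 1484 in CERM and 1364 in BRCA, against 585 in WT (paired-end). The part of macrophages, muscle and fibroblasts in the Lyve1 values was not tested.

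**Figure D3:**
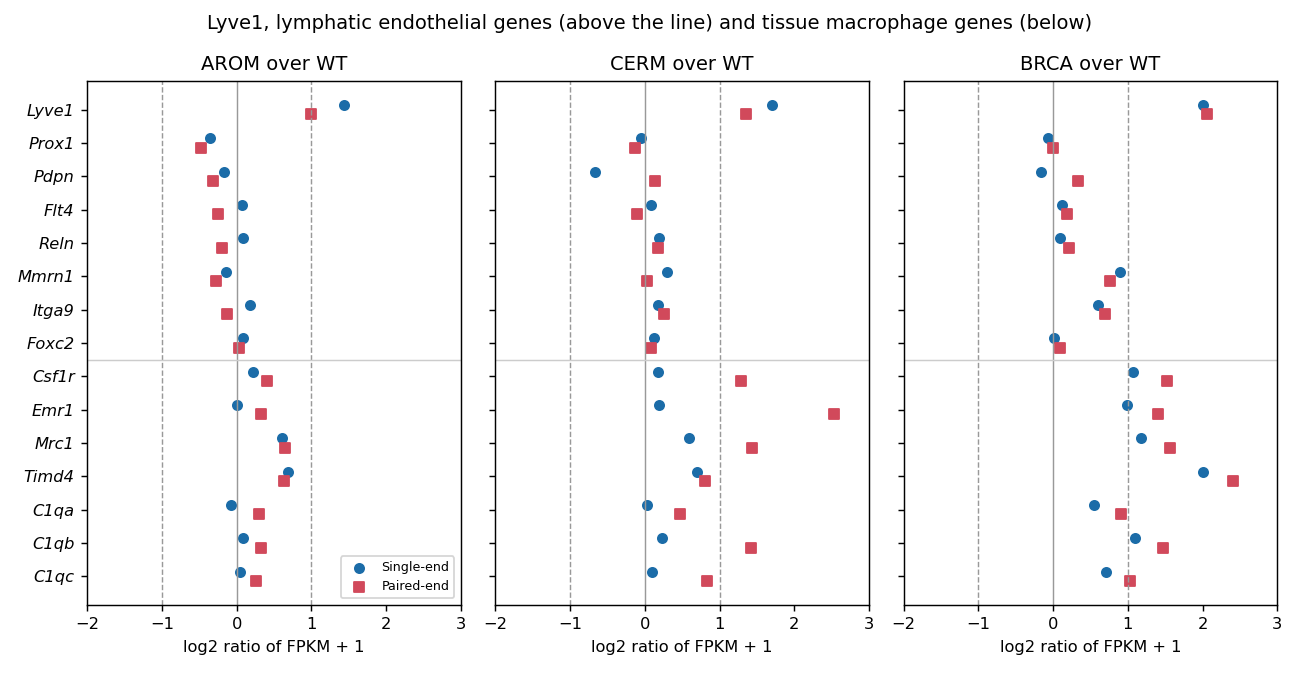
log2 ratio of FPKM + 1 to WT for Lyve1, Prox1 and the further lymphatic genes (above the line) and for tissue macrophage genes (below it) in AROM, CERM and BRCA; circles are single-end and squares paired-end columns, and dashed lines mark 2-fold. Lyve1 alone of the lymphatic genes reaches 2-fold on this scale, and the macrophage genes do so mainly in BRCA and in paired-end CERM. The added 1 FPKM understates low genes. Among them, Mmrn1 was at 1.37 and 1.23 FPKM in BRCA, against 0.27 and 0.31 in WT (single-end and paired-end).

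Madcam1 was lower in all 3 models than in WT. It was at 1.77 FPKM in AROM, 2.36 in CERM and 1.47 in BRCA, against 10.2 in WT, in the single-end columns. In the paired-end columns it was at 0.827 FPKM in AROM, 1.64 in CERM and 1.35 in BRCA, against 8.06 in WT. The highest model value lay below the lower WT value, and CERM was the highest model in both layouts. The FPKM ratios to WT were 0.174 for AROM, 0.232 for CERM and 0.144 for BRCA (single-end) and 0.103 for AROM, 0.204 for CERM and 0.167 for BRCA (paired-end). On the log2 scale of FPKM + 1 these were -2.01 (AROM), -1.74 (CERM) and -2.18 (BRCA) single-end and -2.31 (AROM), -1.78 (CERM) and -1.95 (BRCA) paired-end, each past 2-fold. Of all genes analysed, 1.76% for AROM, 1.04% for CERM and 1.99% for BRCA were at least 2-fold lower in the single-end columns, and 2.83%, 0.844% and 1.3% for AROM, CERM and BRCA in the paired-end ones. At least as low as Madcam1 were 46 genes in AROM, 42 in CERM and 54 in BRCA (single-end), and 28 in AROM, 21 in CERM and 29 in BRCA (paired-end), Madcam1 included. Lower than WT by at least 2-fold in both layouts were 1.34% of genes in AROM, 0.384% in CERM and 1.02% in BRCA, and 7 genes (0.0597%) were so in all 3 models. Beside Madcam1 they were the connexin gene Gjb2, the defensin gene Defb50, the MHC class II pseudogene H2-Ea-ps, 2410017I17Rik and the small RNA loci Snord34 and Snora68, named after their values were seen.

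The stretch before the start of Madcam1 is shown because the gene is known to be induced by inflammatory cytokines through NF-kappaB. Each match of GGG, any 3 letters and TTCC on either strand, a form of the kappaB motif, is in capitals.
Madcam1, GRCm38.p6 chr10:79664309-79664558, plus strand: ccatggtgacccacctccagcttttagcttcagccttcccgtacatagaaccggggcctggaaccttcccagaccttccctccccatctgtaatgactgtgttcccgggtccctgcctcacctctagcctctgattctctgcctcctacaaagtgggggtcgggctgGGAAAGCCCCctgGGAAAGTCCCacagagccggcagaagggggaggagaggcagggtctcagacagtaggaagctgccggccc
It held 2 matches, both on the opposite strand, at 83 to 74 and 70 to 61 bases before the start. Of 32851 promoter entries, 4.65% held at least 1 match in the same window and 48 held at least 2. None of the other 5 genes with an entry held a match. These are matches of letters and not measured sites.

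Of 4 analysed genes that accompany Madcam1 in lymphoid tissue, Glycam1 was at least 2-fold lower than WT in AROM and CERM in both layouts and Gcnt1 in paired-end AROM, and none was in BRCA. Glycam1, which encodes a mucin of high endothelial venules and is also secreted into milk, was at 4.99 FPKM in AROM, 65.5 in CERM and 512 in BRCA, against 518 in WT (single-end). Its paired-end values were 5.50 in AROM, 37.2 in CERM and 458 in BRCA, against 450.2 in WT. AROM was lowest and CERM next in both layouts, and the BRCA and WT values lay close together. Chst4, a sulfotransferase gene of high endothelial venules, was at 0.80 and 0.98 FPKM in BRCA and at most 0.011 FPKM in every other column. The follicular chemokine gene Cxcl13 was at 15.2 and 13.4 FPKM in BRCA, against 2.59 and 1.56 in WT (single-end and paired-end). Cr2, a complement receptor gene of B cells and follicular dendritic cells, was at 1.53 and 1.48 FPKM in BRCA and at most 0.084 FPKM in every other column. Of the 8 genes of this list with a locus of their own, 4 were analysed. Against WT, 1 was called lower in AROM (single-end), 2 in AROM (paired-end) and 1 in CERM in each layout. In BRCA 1, Cxcl13, was called higher in each layout. Of all genes, 1.76% and 2.83% were lower in AROM and 1.04% and 0.844% in CERM (single-end and paired-end). The shares higher in BRCA were 3.38% and 4.68%. The summed level of 6 B cell genes was 40.8 and 39.1 FPKM in BRCA and lay between 3.4 and 5.9 FPKM in the other columns. For 5 T cell genes the sum was 9.65 and 9.28 FPKM in AROM, 21.3 and 16.5 in CERM and 38.6 and 36.8 in BRCA, against 18.4 and 14.8 in WT. The BRCA columns thus combined the highest B cell and follicle levels with a Madcam1 level like those of AROM and CERM. Luminal epithelial genes were lower in AROM, with 4 of 7 at least 2-fold below WT in the single-end columns and 7 of 7 in the paired-end ones, at medians of -1.14 and -1.55 on the log2 scale. Beside this, 1.76% and 2.83% of all genes were at least 2-fold lower in AROM. In CERM none of the 7 was called, and 7 (single-end) and 6 (paired-end) lay below WT, while none was called in BRCA. Their summed level was 409.97 FPKM in AROM, 555 in CERM and 840.4 in BRCA, against 821 in WT (single-end), and 242 in AROM, 527 in CERM and 833 in BRCA, against 657 in WT (paired-end). The lymph node content of each gland was not measured, and its part and that of the epithelium in the Madcam1 and Glycam1 values were not tested.

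**Figure D4:**
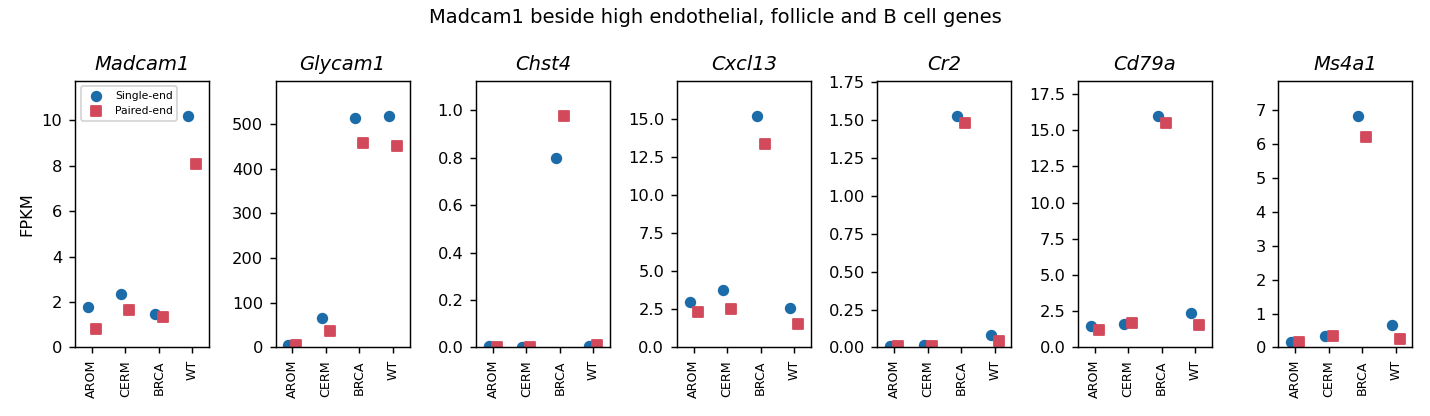
FPKM (vertical axes, each from 0) in AROM, CERM, BRCA and WT of Madcam1, of Glycam1 (high endothelial venules and milk) and of the high endothelial gene Chst4. Beside them are the follicle genes Cxcl13 and Cr2 and the B cell genes Cd79a and Ms4a1. Gcnt1, Fut7, Ltbr and Nkx2-3, of the same list as Glycam1, are not shown. Circles are single-end and squares paired-end values. Madcam1 is high only in WT, while Chst4, Cxcl13, Cr2, Cd79a and Ms4a1 are high only in BRCA.

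Among the 3 models, leaving WT aside, the median log2 ratio of the 8 vessel genes was -0.0072 for CERM over AROM, 0.28 for CERM over BRCA and 0.25 for AROM over BRCA in the single-end columns, beside -0.026, -0.056 and -0.024 for all genes in those comparisons. Paired-end medians were 0.35 for CERM over AROM, 0.15 for CERM over BRCA and -0.27 for AROM over BRCA, beside 0.17, -0.054 and -0.21 for all genes. Above 0 were 4 of the 8 in CERM over AROM, 7 in CERM over BRCA and 7 in AROM over BRCA (single-end), and 7, 6 and 2 in the same comparisons (paired-end); under median-of-ratios scaling of the paired-end columns, Cdh5 and Tek turned positive in AROM over BRCA and Kdr negative in CERM over AROM. CERM over AROM and CERM over BRCA had none of the 8 genes past 2-fold in either layout, in either direction. Beside this, CERM over AROM had 1.67% of all genes past 2-fold higher and 0.92% lower in the single-end columns, and 3.99% higher and 2.35% lower in the paired-end ones. For CERM over BRCA the shares were 3.02% higher and 2.77% lower (single-end), and 2.32% higher and 2.61% lower (paired-end). In AROM over BRCA 1 gene was called, Lyve1 in the paired-end columns, at a log2 ratio of -1.05. Beside it, 3.25% of genes analysed were past 2-fold higher and 5.11% lower in AROM over BRCA in the single-end columns, and 4.55% higher and 10.3% lower in the paired-end ones. The Lyve1 call was lost under median-of-ratios scaling (-0.82) and quantile normalization (-0.75). Kdr was 1.74 times BRCA in AROM and 1.55 times BRCA in CERM in the single-end columns, and 1.18 and 1.31 times BRCA in AROM and CERM in the paired-end ones. Madcam1 in CERM was 1.33 times AROM in the single-end and 1.99 times AROM in the paired-end columns, with log2 ratios of FPKM + 1 of 0.28 and 0.53.

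Further pan-endothelial genes described the same vessels with other markers, from a list of 28 of which 26 had a locus of their own and all 26 passed the minimum level. In AROM none of the 26 was called in either layout, with medians of 0.29 (single-end) and -0.027 (paired-end). In CERM none was called in the single-end columns and 1, the sphingosine receptor gene S1pr1, was 2-fold higher in the paired-end ones, with medians of -0.035 and 0.12. In BRCA 2 were at least 2-fold lower in both layouts and 1, the diaphragm gene Plvap, was 2-fold higher in the paired-end columns, with medians of -0.33 and -0.25 beside 0.037 and 0.10 for all genes. Paired-end shares of all genes at least 2-fold higher were 3.65% in CERM and 4.68% in BRCA. A single call among 26 is near these shares and is no result about the list. The shares at least 2-fold lower in BRCA were 1.99% (single-end) and 1.3% (paired-end), and 1.02% in both layouts. Cldn5, the tight junction claudin of endothelium, was at 14.8 and 15.4 FPKM in BRCA, against 46.0 and 39.3 in WT. Gpihbp1, which carries lipoprotein lipase to the capillary surface in fat, was at 46.9 and 44.6 FPKM in BRCA, against 123 and 97.6 in WT (single-end and paired-end). In BRCA these were the genes of the list furthest below WT in both layouts. White adipocyte genes were lower in the BRCA columns too, with 3 of 9 in the single-end and 2 of 9 in the paired-end columns at least 2-fold lower, Retn and Adrb3 in both. Their summed level was 1815 and 1742 FPKM in BRCA, against 3455 and 2734 in WT, and its part in the capillary gene values was not tested.

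**Figure D5:**
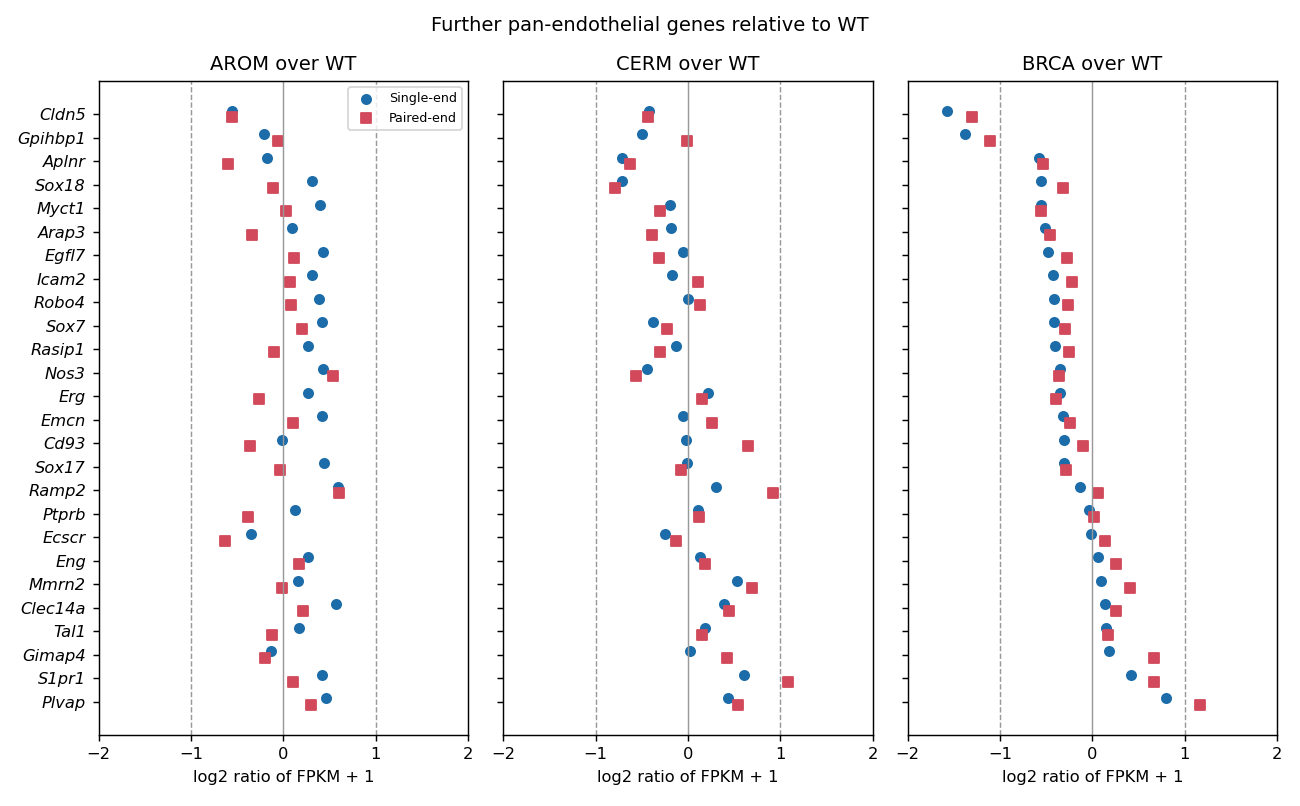
log2 ratio of FPKM + 1 to WT for 26 further pan-endothelial genes in AROM, CERM and BRCA, ordered by the single-end BRCA value; circles are single-end and squares paired-end columns, and dashed lines mark 2-fold. Cldn5 and Gpihbp1 lie left of the lower line in BRCA in both layouts, and no gene of AROM crosses a line.

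Ligands and co-receptors of the growth factor pathways gave 1 call in each layout for AROM and for CERM. Of 13 listed, 9 had a locus of their own and 8 were analysed. Apln, which encodes the ligand apelin of the endothelial receptor Aplnr, was at 4.59 FPKM in AROM, 4.90 in CERM and 8.15 in BRCA, against 13.2 in WT (single-end), and at 2.81 in AROM, 4.06 in CERM and 8.26 in BRCA, against 11.3 in WT (paired-end). It was at least 2-fold lower in AROM and in CERM in both layouts, and WT was highest in both. The share of all genes lower in both layouts was 1.34% in AROM and 0.384% in CERM. Vegfa, the main ligand of Kdr, was at 47.0 FPKM in AROM, 37.7 in CERM and 29.98 in BRCA, against 43.0 in WT (single-end). Its paired-end values were 35.9 in AROM, 26.4 in CERM and 29.9 in BRCA, against 41.8 in WT, within 2-fold. Angpt1, Angpt2 and Vegfc were not called in any of these 6 comparisons. Vegfb and the lymphatic ligand gene Figf shared a locus with another gene and were not used.

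Of the arterial, venous and tip cell genes 7 were analysed, and Hey1, a Notch target gene of arterial endothelium and other cells, was the only one called against WT. It was at 9.07 FPKM in AROM, 10.03 in CERM and 3.61 in BRCA, against 2.82 in WT (single-end), and at 5.58 in AROM, 8.69 in CERM and 3.83 in BRCA, against 2.596 in WT (paired-end). It was at least 2-fold higher in CERM in both layouts and in AROM in the single-end columns, beside 0.92% and 2.51% of all genes. Dll4, the Notch ligand gene of tip cells, was at 6.52 FPKM in AROM, 5.32 in CERM and 2.84 in BRCA, against 6.01 in WT (single-end), and at 4.31 in AROM, 4.20 in CERM and 2.90 in BRCA, against 5.71 in WT (paired-end). Esm1, of the same list, went the other way in BRCA, at 1.72 and 1.79 FPKM, against 0.63 and 0.55 in WT (single-end and paired-end). Of the 7 genes, 4 (single-end) and 6 (paired-end) lay above WT in BRCA, so Dll4 does not stand for the list. Among the adhesion genes of inflamed endothelium, 3 were analysed. Selp, the P-selectin gene of endothelium and platelets, was at 6.98 and 6.09 FPKM in BRCA, against 2.09 and 1.58 in WT, at least 2-fold higher in both layouts, as were 2.77% of all genes. Icam1 and Vcam1 were not called against WT in any model. Of the 8 mural cell genes, which mark the pericytes and smooth muscle around vessels, none was called in CERM or BRCA in either layout or in AROM in the single-end columns. Cspg4 and Mcam were 2-fold higher in AROM in the paired-end columns, as were 2.1% of all genes. Mcam stood there at 64.6 FPKM in AROM, against 31.4 in WT. Rgs5 went the other way in the same columns, at 28.3 FPKM in AROM, against 47.5 in WT. Of the 8 mural genes, 4 lay above and 4 below WT in paired-end AROM, at a median log2 ratio of -0.15.

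The genes nearest to 3 of the 10 in profile were listed, by the root mean square difference of log2(FPKM + 1) after centring on the 4 genotypes of each layout, over 8 columns and 10832 genes. Nearest to Madcam1 were Defb50 (0.28), Atp7b (0.34), Rspo1 (0.38), Ano3 (0.39) and Elovl6 (0.39). Nearest to Lyve1 were F13a1 (0.25), Mylk4 (0.25), Abra (0.26), Ifit3 (0.27) and Actc1 (0.27). F13a1 was at 20.9 FPKM in AROM, 25.5 in CERM and 29.2 in BRCA, against 12.0 in WT (single-end), and at 15.5 in AROM, 20.1 in CERM and 28.5 in BRCA, against 8.75 in WT (paired-end). Mylk4 and Abra, not among the 8 muscle genes summed above, had the order of Lyve1 in both layouts. Single-end Mylk4 was at 24.7 FPKM in AROM, 28.7 in CERM and 32.4 in BRCA, against 8.78 in WT. Its paired-end values were 16.1 in AROM, 23.3 in CERM and 31.0 in BRCA, against 13.4 in WT. Actc1 was higher in CERM than in BRCA in the single-end columns. Nearest to Cdh5 were Ankrd13b, Car8, Mcc, Zfp420 and BC053749, with differences of 0.042 to 0.059, none of which is in the endothelial lists. With 8 columns, likeness of profile describes these columns only.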

How the data were processed

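The members and gene lists were chosen with earlier results of these data known. Polyadenylated RNA was sequenced with an Illumina TruSeq kit, per the labels' protocols. The authors deposited 1 table of FPKM values; FastQC, Trim Galore, TopHat and Cufflinks with mouse build mm9 are named, per the submitters' processing notes, without versions; annotation and strand handling are not stated in the sources used here. At most 4.22% of genes under 0.1 FPKM shared 1 ratio between 2 model columns to within 1%. The share expected without whole reads was not computed, so this does not decide whether low values lie at whole multiples. No reads were recovered, and depth is unknown.

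Columns were matched to genotype and layout by name. Among 30843 loci, 20420 carried a single symbol found at no other locus; the 11734 of these with a mean of at least 1 FPKM over 8 columns were analysed. For 6 pairs of genotypes in each layout, log2 ratios of FPKM + 1 were computed on the values as deposited and called at 2-fold. Planned limma fits needed 1 column per library and were not run. Named genes were the 10 members, up to 4 of each other list called alike in both layouts against WT, and the 5 nearest profiles of 3 members; further list genes (such as Flt4, Mmrn1, Vegfa, Dll4, Chst4 and Cr2) were added after their values were seen. Alternatives were a pseudocount of 0.1, median-of-ratios scaling, quantile normalization, a minimum of 5 FPKM or none, and the WT column of the other layout. Overlapping noncoding genes are annotated at Cdh5, Kdr, Flt1 and Prox1, and their reads cannot be told apart here. Python 3.11.15, numpy 2.4.6 and pandas 2.3.3 were used. Promoter sequences are RefSeq's on GRCm38.p6.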

Additional observations from a re-analysis of the deposited data

How the results depend on the processing

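No paired analysis was possible because the table holds 1 pooled column per genotype and layout, and for the same reason no replicate could be left out. Of 66 alternative counts of vessel genes called, 63 stayed within 1.5 times the reported count. Each reported count was 0 or 1, and not all alternatives could change it. All 8 counted genes had means of at least 7.98 FPKM, so the minimum of 5 FPKM removed none. Dropping the minimum added only Prox1, whose log2 ratios reached at most 0.48 in size. The 63 are therefore a weak check. Paired-end AROM over WT gave 0 genes called with the WT column of the other layout, against 1. Paired-end AROM over BRCA gave 0 under median-of-ratios scaling and 0 under quantile normalization, against 1; in both cases the gene is Lyve1. Over its comparisons with WT, settings together, Lyve1 ranged from 0.83 to 2.87 and Madcam1 from -3.14 to -1.43 on the log2 scale. Dividing each value by Cdh5 of its column was added after the data were seen and left Lyve1 and Madcam1 past 2-fold against WT in all 6 comparisons. Cdh5 was below WT in all 6, so the division raises every ratio to WT. It could not undo a Lyve1 call and is no check on Lyve1, while for Madcam1 it works against the call. Median-of-ratios scaling moved the median log2 ratio of all genes by 0.11 in paired-end AROM over WT, -0.10 in BRCA over WT, -0.15 in CERM over AROM and 0.21 in AROM over BRCA. The share of calls that were higher was then 57.5% against 42.6% as deposited in paired-end AROM over WT, 68.3% (64.6% after quantile normalization) against 78.2% in BRCA over WT, 42.7% against 62.9% in CERM over AROM and 55.1% against 30.6% in AROM over BRCA. Of all genes, the pseudocount of 0.1 FPKM gave 335 against 207 lower in AROM over WT (single-end), 193 against 122 lower in CERM over WT (single-end), 607 against 397 higher in BRCA over WT (single-end), 301 against 196 higher in CERM over AROM (single-end), 565 against 325 lower in CERM over BRCA (single-end), 914 against 600 lower in AROM over BRCA (single-end), 620 against 332 lower in AROM over WT (paired-end), 161 against 99 lower in CERM over WT (paired-end), 829 against 549 higher in BRCA over WT (paired-end), 233 against 153 lower in BRCA over WT (paired-end), 839 against 468 higher in CERM over AROM (paired-end), 532 against 306 lower in CERM over BRCA (paired-end), 1855 against 1210 lower in AROM over BRCA (paired-end). Median-of-ratios scaling gave 375 against 246 higher in AROM over WT (paired-end), 446 against 276 lower in CERM over AROM (paired-end), 948 against 534 higher in AROM over BRCA (paired-end), 772 against 1210 lower in AROM over BRCA (paired-end). Quantile normalization gave 687 against 1210 lower in AROM over BRCA (paired-end). The cause of these shifts was not tested. With depth unknown, no counting error can be given for low genes such as Prox1, Chst4 and Cr2.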
